A study of Mus musculus with 18 samples.

Results

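W131A and loss of Cbl-b were measured alone and together in naive CD4 T cells, and the genes described here are those at which the double change did not equal the sum of both single changes on the log2 scale. Their members are the differences of differences, (Cbl-b-/-W131AOTII minus Cbl-b-/- OTII) minus (W131AOTII minus OTII), over 12 peripheral libraries of the 18 in the series, in 4 groups of 3. All 4 groups came from C57BL/6 mice carrying OT-II, a transgenic T cell receptor for an ovalbumin peptide, and were sorted from spleen and lymph nodes with a gate that included CD44low, CD25neg and Va2+. OTII cells had no further change, W131AOTII cells carried the W131A substitution in the kinase ZAP-70, Cbl-b-/- OTII cells lacked Cbl-b, and Cbl-b-/-W131AOTII cells, called the double group below, had both changes. By the labels, 3 mice served for OTII and 3 for Cbl-b-/-, while 12 served for W131AOTII (4 in each group) and 6 for the double genotype (2 in each group). Cells of several animals therefore appear to have been combined in some libraries, but the labels do not tie mice to libraries, and they give no age or sex. Nothing says which libraries came from separate animals, so a p-value here reflects library-to-library spread, which may be technical in part.

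ZAP-70 is the kinase that the T cell receptor recruits first, and the W131A substitution loosens its autoinhibited form. Cbl-b is an E3 ubiquitin ligase that restrains signals from the T cell receptor and CD28, and mice without it carry hyperresponsive T cells. The series asks which pathways Cbl-b controls in anergy, the unresponsive state that T cells enter after incomplete stimulation and that W131AOTII mice model genetically. Type I interferons act through the receptor chains IFNAR1 and IFNAR2 on a complex that contains STAT2 and IRF9, binds the interferon-stimulated response element and switches on antiviral genes. Interferon gamma acts in part through IRF1, and its typical targets include the guanylate-binding proteins and the immunity-related GTPases. Naive T cells hold a low tonic level of both programs.

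The response was non-additive at 116 of 14586 genes tested (0.795%), by edgeR's quasi-likelihood test at an adjusted p of 0.05. The double change was lower than additive at 103 of them (0.706% of genes tested) and higher at 13 (0.0891%), and 88 and 9 of these differed from additivity at least 2-fold. At the median called gene the observed level was 0.33 of the additive expectation, which is the W131AOTII level times the Cbl-b-/- OTII level divided by the OTII level, all in CPM, read counts scaled to a common library size. The W131A effect had opposite signs with and without Cbl-b at 102 of the 116 genes, and at 13 of these it was called in both backgrounds. The genes were called for the difference between those effects, which by itself favours opposite signs, so the count of 102 is only a description. All 116 kept their sign when the difference of differences was taken on untransformed CPM. In other fits of the same contrast, 55 of the 116 were called in all 23 settings tried, and the sign was reversed at 0 of the 116. The number of calls varied more. It rose to 750 when Cbl-b-/- OTII replicate 3 was left out, and it was 74 or 70 when OTII replicate 2 or 3 was dropped and 75 or 76 when replicate 2 or 3 of the double group was dropped. By limma's voom with quality weights it was 675, of which 56.1% were lower than additive.

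**Figure D1:**
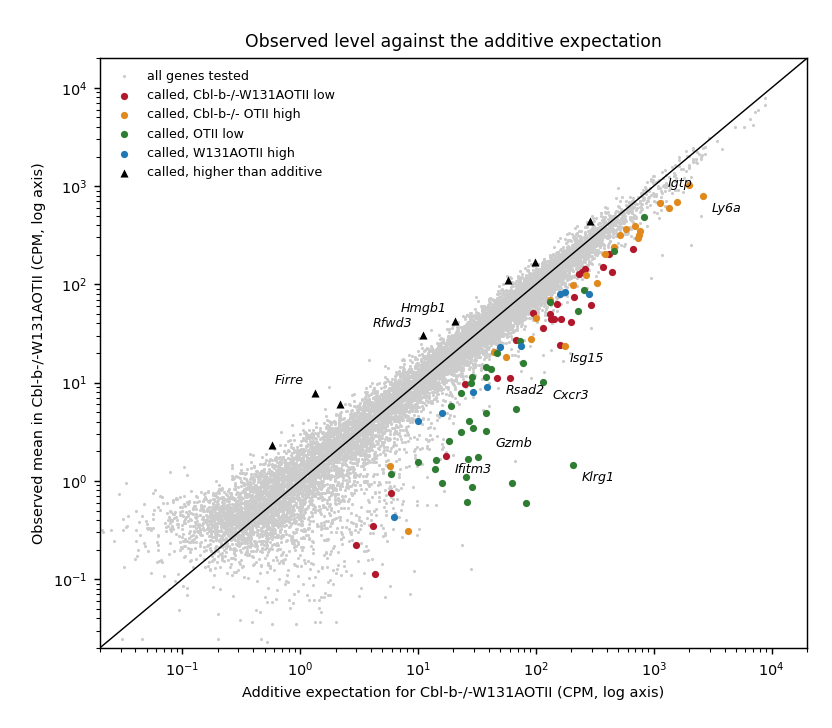
Observed mean level in Cbl-b-/-W131AOTII libraries (vertical, CPM, log axis) against the additive expectation (horizontal, CPM, log axis) for 14533 of the genes tested; 53 lay outside the axes or had a group mean of 0. The line marks additivity, coloured points are called genes by the group that stands apart, and triangles are genes called higher than additive; most called genes lie below the line.

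The called genes were sorted by the group whose fitted log2 mean lay farthest from the mean of the other 3. OTII was the low group at 37 genes, Cbl-b-/-W131AOTII was the low group at 28, Cbl-b-/- OTII was the high group at 26 and W131AOTII was the high group at 12. These 4 shapes held all 103 genes below additivity. Among the 13 above it, W131AOTII was low at 5, Cbl-b-/-W131AOTII high at 5, Cbl-b-/- OTII low at 2 and OTII high at 1. The shapes differed in level as well as in gene content. The median level over 12 libraries was 4.42 CPM for the genes low in OTII, 78.3 CPM for those low in Cbl-b-/-W131AOTII, 214 CPM for those high in Cbl-b-/- OTII and 9.36 CPM for those high in W131AOTII. A shape is a description of genes that the same test had called, and it carries no test of its own.

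**Figure D2:**
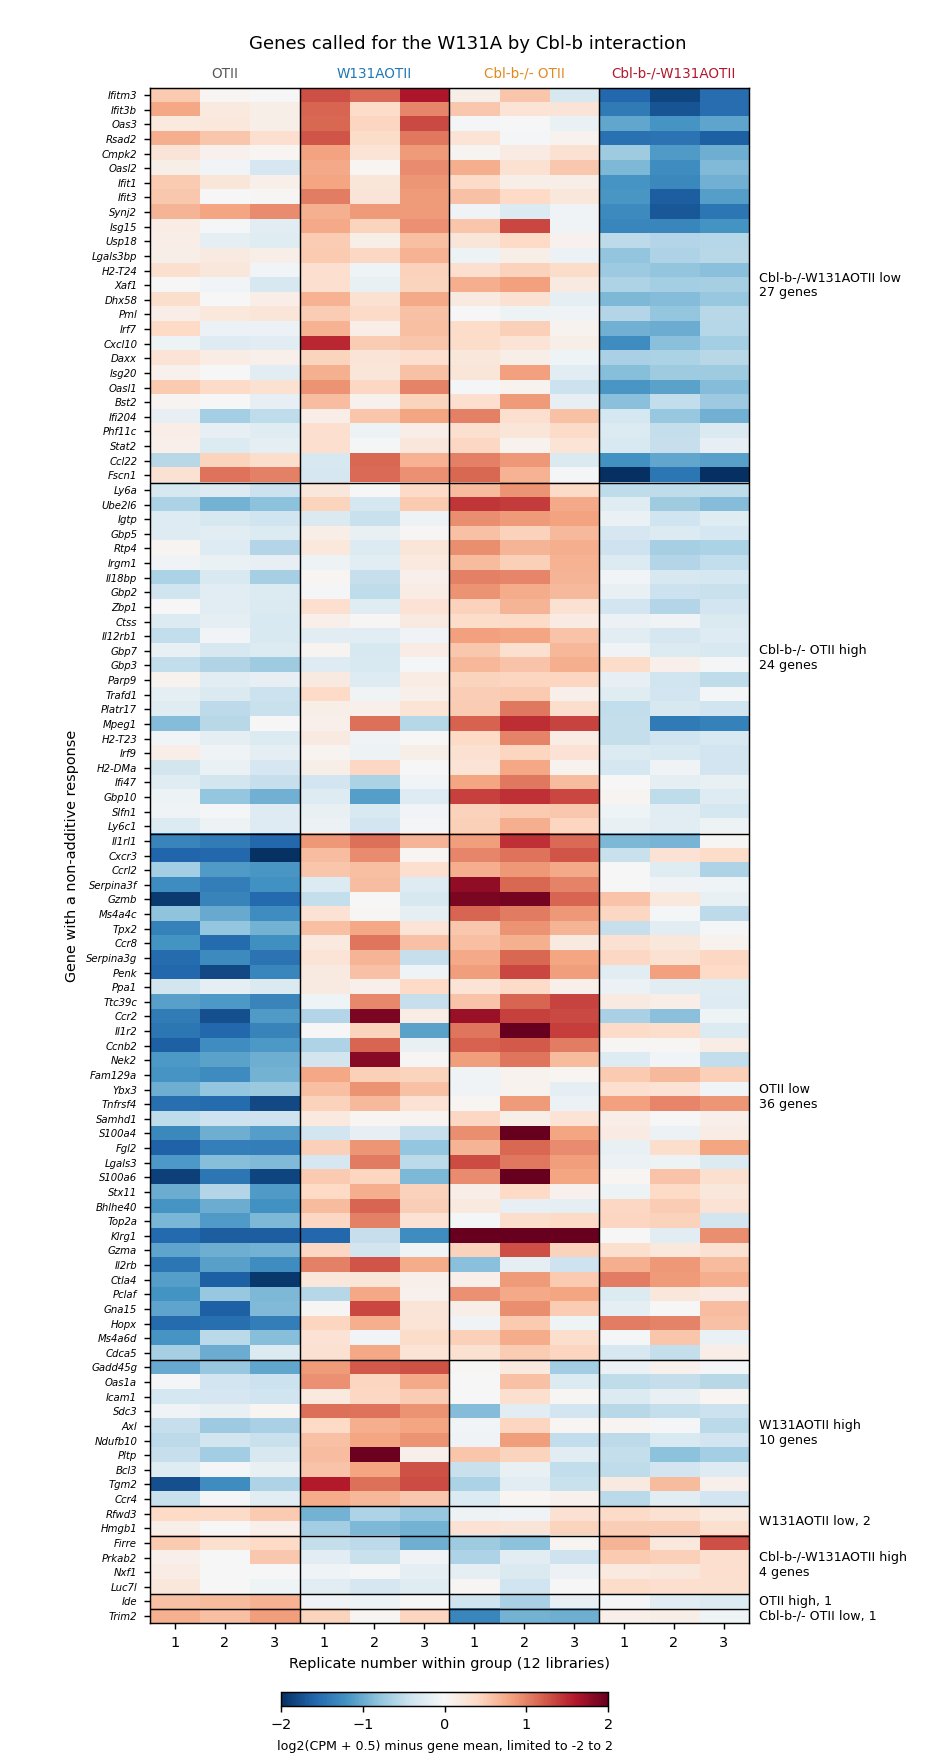
Level of 105 called genes (rows, 11 predicted genes and pseudogenes left out) in the 12 libraries (columns), as log2(CPM + 0.5) minus the gene's mean, with colours limited to -2 and 2. Rows are grouped by the group that stands apart; the top block is low in all 3 Cbl-b-/-W131AOTII libraries, and the block of OTII low genes is low in all 3 OTII libraries.

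Markers of other cells moved along with these groups and are given first. T cell genes were high in all libraries, with Cd4 at 934 to 1670 CPM and Cd3e at 955 to 1440 CPM. Both were lowest in the double group, where Cd4 was 934 to 1040 CPM and Cd3e 955 to 1070. The other 9 libraries had at least 1250 and 1130 CPM. Of 12 CD4 T cell identity genes 0 were called, but their summed level was also lowest with both changes. It was 18350 to 19840 CPM there and at least 20570 in the other 9. Of 20 B cell markers measured, 0 were called, but all 20 lay below 0 (median interaction -2.10), and their summed level was 2567 to 2929 CPM in OTII, 2649 to 6998 in W131AOTII, 2126 to 2800 with Cbl-b loss alone and 1755 to 1929 with both changes. The 6998 CPM belonged to W131AOTII replicate 2. Ighm had the highest level of these markers, with group means of 1500 to 1910 CPM and an interaction of -0.19. The sum therefore does not show how far lower markers fell. From OTII to the double group, Cd74 went from 350 to 115 CPM and H2-Aa from 71.8 to 19.9. Bank1 changed less, from 17.2 to 15.2 CPM, and Cd72 rose from 13.6 to 19.8. Cd72 was the exception among these markers, as the others had their lowest group mean in the double group. Of 20 myeloid and dendritic cell markers, 16 were measured, 2 were called (Ctss and Mpeg1; 12.5%, against 0.795% of all genes) and 14 lay below 0 (median -3.06). Their summed level was 440 to 486 CPM in OTII and 432 to 493 with both changes. It was 550 to 650 in W131AOTII and 578 to 771 with Cbl-b loss alone. Most of each sum came from Ctss, with group means of 366 to 541 CPM, and Cst3, with 64.7 to 103. The next highest group mean was 25.6 CPM, for Lyz2 in W131AOTII. The similar sums of OTII and the double group therefore do not show similar levels of the other myeloid markers. Cd79a, a component of the B cell receptor, was 28.2 to 32.6 CPM in OTII, 28.3, 153 and 17.3 in W131AOTII, 13.8 to 26.6 with Cbl-b loss alone and 8.08 to 9.81 with both changes. Among defining myeloid markers in Cbl-b-/-W131AOTII, Lyz2 was 0.76 to 2.04 CPM, against 3.64 to 61.5 in the other 9 libraries, and Siglech was at 0 in all 3 and above 0 in the other 9. Csf1r was at 0 in replicates 2 and 3, as in W131AOTII replicate 1. Clec9a was at 0 in all 3 and also in replicates 1 and 2 of OTII and of Cbl-b-/- OTII and in W131AOTII replicate 1. Other myeloid markers went the other way, and Adgre1 and Fcgr3 had their highest group mean in the double group, at 0.639 and 2.20 CPM. Of 14 NK and innate-like T cell markers, 11 were measured, 1 was called (Gzma; 9.09%) and all 11 lay below 0 (median -1.59). Their summed level was 229.5 to 262 CPM in OTII, 521.7 to 695.3 in W131AOTII, 249.1 to 360.7 with Cbl-b loss alone and 421.3 to 553.1 with both changes. The natural killer receptor gene Ncr1 was at 0 in all 3 double libraries. Ncr1 was also at 0 in OTII replicates 1 and 2, W131AOTII replicates 1 and 3 and Cbl-b-/- OTII replicate 1, and at most 0.735 CPM elsewhere. The part of these cells in the results below was not tested. In bulk samples, fewer cells of a type and less RNA per cell cannot be told apart. Column totals ran from 19708218 to 36218772 counts.

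The targeted genes showed no called interaction. Cblb was 123, 122 and 141 CPM in OTII, 176, 153 and 145 in W131AOTII, 66.8, 50.8 and 90 with Cbl-b loss alone and 110, 86.7 and 82.3 with both changes. All 6 Cbl-b-/- libraries lay below all 6 with Cbl-b, and reads remained in each, while the sources used here do not give the deleted part of the gene. The Cblb interaction was 0.13 ± 0.24 (log2, standard error (SE); edgeR adjusted p = 0.836). Zap70, which a point substitution need not alter in level, had an interaction of -0.44 ± 0.21 (SE; edgeR adjusted p = 0.329).

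Antiviral genes of the type I interferon response had the most calls among the 52 lists. All 44 genes on that list were measured, 22 were called lower than additive (50.0%, against 0.706% of all genes) and 0 higher. All 44 had an interaction below 0, with a median of -1.32 against -0.02 for all genes. At 26 of the 44 the 3 Cbl-b-/-W131AOTII libraries lay below the other 9, against 3.59% of all genes tested. This pattern was not particular to interferon genes, since 13 of the 20 B cell markers had it too. So did 21 of 62 immunoglobulin segments, of which 0 were called and all 62 lay below 0 (median -3.07). The summed level of the list was 7137 to 8363 CPM in OTII, 7592 to 10290 in W131AOTII, 9455 to 10240 with Cbl-b loss alone and 5693 to 6368 with both changes. The double group lay lowest, Cbl-b-/- OTII lay above OTII and W131AOTII overlapped OTII. Leaving out 1 library at a time gave 19 to 28 called members, and 28 were called without W131AOTII replicate 2, the library with the high B cell markers.

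Several called members encode antiviral effector proteins. Rsad2, which encodes viperin, an enzyme that makes a chain-terminating nucleotide, was 55.4, 49.2 and 41.9 CPM in OTII, 79.96, 43.0 and 69.4 in W131AOTII, 40.1, 32.1 and 34.8 with Cbl-b loss alone and 11.4, 11.6 and 10.3 with both changes. Every Cbl-b-/-W131AOTII library was below the other 9, and the additive expectation was 46.8 CPM. The interaction of Rsad2 was -2.07 ± 0.27 (SE; edgeR adjusted p = 0.0014). Cmpk2, a nucleotide kinase that lies near Rsad2 on chromosome 12, had a mean of 36.3 ± 5.52 CPM (SD, n = 3) in Cbl-b-/-W131AOTII against 76.4 ± 6.48 in OTII, 111 ± 23 in W131AOTII and 78.9 ± 6.89 in Cbl-b-/- OTII. Its additive expectation was 115 CPM.

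The IFIT proteins bind viral RNA that lacks host cap methylation. Ifit1 was 427, 351 and 317 CPM in OTII, 513, 351 and 547 in W131AOTII, 385, 321 and 319 with Cbl-b loss alone and 130, 121 and 152 with both changes. Ifit3 was 149, 103 and 104 CPM in OTII, 208, 123 and 185 in W131AOTII, 154, 135 and 120 with Cbl-b loss alone and 45.6, 32.3 and 47.3 with both changes. In both genes the double group lay apart from the other 9 libraries, which overlapped one another. The interaction was -1.71 ± 0.23 for Ifit1 and -2.24 ± 0.29 for Ifit3 (SE; edgeR adjusted p = 0.0014 and 0.00141). Ifit3b, a near-identical neighbour of Ifit3 whose reads the counting may have split or lost, had an interaction of -2.44 ± 0.29.

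The OAS proteins sense double-stranded RNA. Oas3 was 109, 111 and 103 CPM in OTII, 213, 129 and 239 in W131AOTII, 93.4, 95.3 and 86.9 with Cbl-b loss alone and 46.1, 41.7 and 45.4 with both changes. W131AOTII was the high group with Cbl-b present, and the double group was the low one without it. The W131A effect on Oas3 was therefore called in opposite directions, 0.84 in the presence and -1.05 in the absence of Cbl-b (log2). Oasl2, an OAS-like protein, was 61.1 ± 8.19 CPM (SD, n = 3) in Cbl-b-/-W131AOTII where 291 CPM was the additive expectation. Ifitm3, a membrane protein that blocks virus entry, had the lowest interaction on this list, at 1.90, 1.49 and 1.97 CPM in Cbl-b-/-W131AOTII against 9.65, 6.76 and 6.53 in OTII, 16.9, 15 and 21.4 in W131AOTII and 7.17, 9.92 and 5.20 in Cbl-b-/- OTII. The interaction of Ifitm3 was -3.26 ± 0.36 (SE; edgeR adjusted p = 0.000434).

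Further members, chosen after their values were seen, covered the other steps of the pathway. Isg15, a ubiquitin-like modifier, was 64.8, 56.8 and 50.4 CPM in OTII, 98.7, 79.5 and 110 in W131AOTII, 85.8, 148 and 55.4 with Cbl-b loss alone and 23.3, 23.4 and 25.4 with both changes. Usp18, the protease that removes ISG15 and dampens the receptor, averaged 149 ± 3.87 CPM (SD, n = 3) in the double group, against an expectation of 373 CPM. Among transcription factors, Irf7 had an interaction of -1.56 ± 0.25, Stat2 of -0.87 ± 0.19 and Irf9 of -0.72 ± 0.15 (SE; edgeR adjusted p = 0.00629, 0.043 and 0.027). Stat2 and Irf9 were called in 12 and 14 of the 23 settings.

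The receptor end of the pathway gave no call, with all 4 group means close together for the chains. Ifnar1 was 248, 243, 268 and 265 CPM on average in OTII, W131AOTII, Cbl-b-/- OTII and the double group, and its interaction was 0.02 ± 0.15 (SE; edgeR adjusted p = 0.971). Ifnar2 had an interaction of 0.12 ± 0.14 (SE; edgeR adjusted p = 0.716). The interferon-gamma receptor chain Ifngr1 had -0.40 ± 0.13 (SE; edgeR adjusted p = 0.176) and Ifng itself averaged at most 0.378 CPM in any group. Not all targets were called: Mx1, the dynamin-like antiviral GTPase, had -1.66 (edgeR adjusted p = 0.0526), Ifit2 had -0.36 (adjusted p = 0.43) and Ddx58, which encodes the RNA sensor RIG-I, had -0.26 (adjusted p = 0.537). These receptor genes and uncalled members were picked after their values were seen.

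**Figure D3:**
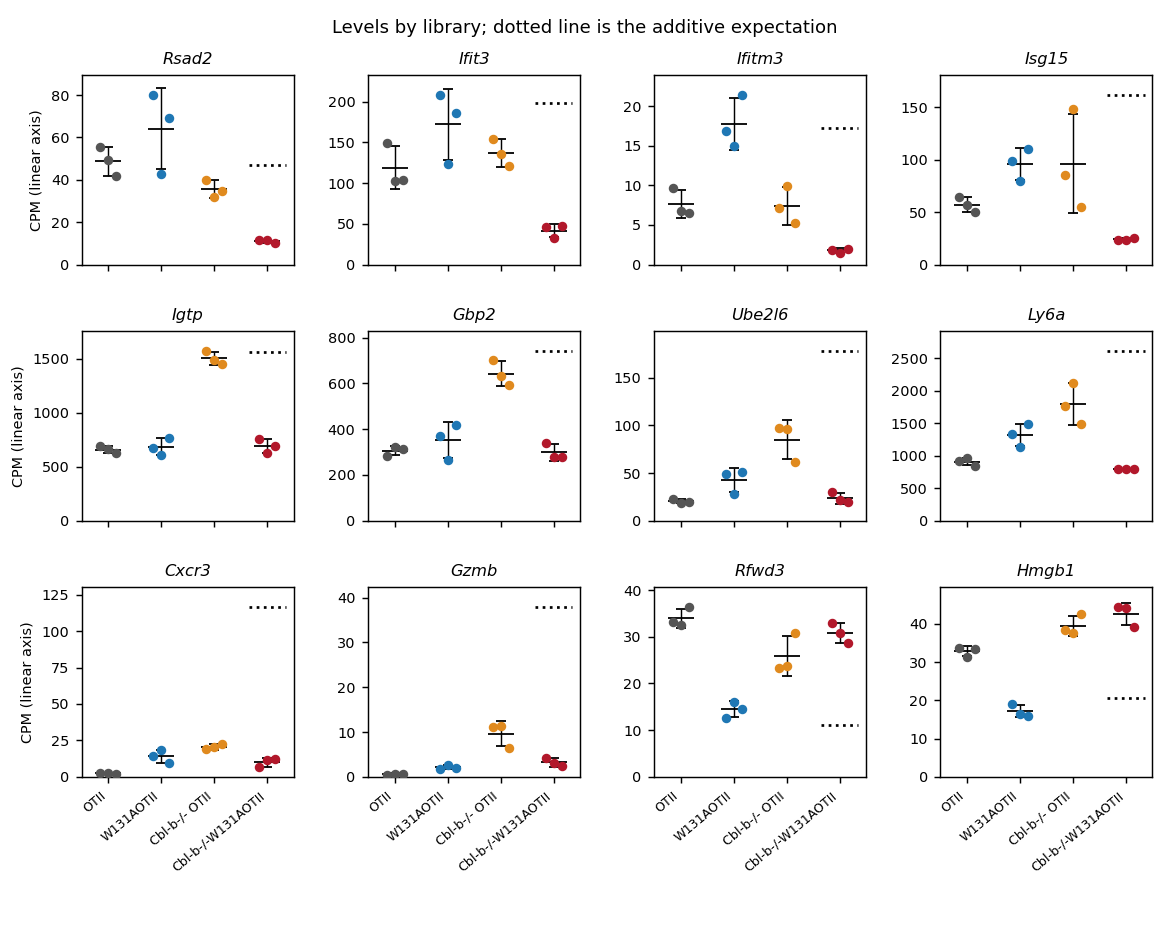
CPM (linear axes from 0) of 12 genes in each library, with group mean and SD (n = 3) as bars; the dotted line over the Cbl-b-/-W131AOTII points is the additive expectation. The double group has the lowest libraries in the top row, Cbl-b-/- OTII has the highest mean in the middle row, OTII is lowest for Cxcr3 and Gzmb, and W131AOTII is lowest for Rfwd3 and Hmgb1.

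The 22 called members of the type I interferon list did not all share 1 shape. The double group was low at 17, and Cbl-b-/- OTII was high at 3 (Rtp4, Zbp1 and Irf9). OTII was low at 1 (Samhd1) and W131AOTII high at 1 (Oas1a). In a related set of interferon genes the called members had Cbl-b-/- OTII as the high group. The list of interferon-inducible GTPases and antigen processing genes had 25 measured members, of which 8 were called lower than additive (32%, against 0.706% of all genes) and 0 higher, with a median interaction of -0.88. They were Ly6a, Igtp, Gbp5, Irgm1, Gbp2, Gbp7, Gbp3 and Gbp10, and all 8 had this shape, though the order of the other 3 groups varied. At 18 of the 25 the 3 Cbl-b-/- OTII libraries lay above the other 9, against 2.94% of all genes tested. The count of 8 became 17 when Cbl-b-/- OTII replicate 3 was dropped, and 5 when replicate 2 or 3 of either OTII or the double group was. Several of these genes are close paralogs in clusters, so counting may have split their reads.

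Igtp and Irgm1 belong to the immunity-related GTPases, a family that acts against vacuoles of intracellular pathogens. Igtp was 690, 661 and 627 CPM in OTII, 678, 610 and 767 in W131AOTII, 1568, 1492 and 1450 with Cbl-b loss alone and 755, 625 and 696 with both changes. The Cbl-b-/- OTII libraries stood above all others by a wide gap, and the double group overlapped both OTII and W131AOTII. The interaction of Igtp was -1.18 ± 0.15 (SE; edgeR adjusted p = 0.00133), with 1562 CPM as the additive expectation. Irgm1 was 449, 430 and 419 CPM in OTII, 439, 407 and 543 in W131AOTII, 735, 659 and 767 with Cbl-b loss alone and 391, 316 and 334 with both changes, so the double group lay below OTII and W131AOTII too.

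The guanylate-binding proteins coat such vacuoles and feed inflammasomes. Gbp2 was 285, 323 and 311 CPM in OTII, 372, 266 and 420 in W131AOTII, 701, 634 and 594 with Cbl-b loss alone and 339, 278 and 278 with both changes. The interaction was -1.31 ± 0.20 for Gbp2, -1.16 ± 0.16 for Gbp5 and -0.95 ± 0.18 for Gbp7 (SE; edgeR adjusted p = 0.00368, 0.00147 and 0.019). Gbp3 was 38.2 to 44.7 CPM in OTII and higher, at 61.6 to 81.1, with both changes, and Gbp3 and Gbp10 were called in 15 and 14 of the 23 settings. Ly6a, the surface protein Sca-1, was 914, 958 and 847 CPM in OTII, 1333, 1135 and 1485 in W131AOTII, 1766, 2126 and 1483 with Cbl-b loss alone and 801, 799 and 802 with both changes. Both single changes had more Ly6a than OTII and the double group had less than every other library. The interaction of Ly6a was -1.70 ± 0.18 (SE; edgeR adjusted p = 0.000383).

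Other genes of this shape lay outside that list. Ube2l6, the conjugating enzyme for ISG15, was 23, 18.3 and 20 CPM in OTII, 48.9, 28 and 51.4 in W131AOTII, 97.3, 95.7 and 61.2 with Cbl-b loss alone and 30.3, 21.8 and 19.3 with both changes. Its observed double level was 0.135 of the additive expectation. Il12rb1, a chain of the receptors for IL-12 and IL-23, was 43.8, 43.0 and 37.0 CPM in Cbl-b-/- OTII and between 17.4 and 23.6 in the other 9 libraries. Ctss, the lysosomal protease cathepsin S, had -0.82 ± 0.14 and Mpeg1, a pore-forming protein of macrophages, had -4.66 ± 0.90 (SE; edgeR adjusted p = 0.00771 and 0.0212). Mpeg1 was 0.111 to 4.03 CPM across the libraries, and both genes are also on the myeloid list described above. H2-T23, which encodes the nonclassical class I molecule Qa-1 and was chosen after its values were seen, was 1047, 1583 and 877 CPM with Cbl-b loss alone and 571, 598 and 644 with both changes. H2-T24, another nonclassical class I gene chosen in the same way, was low in the double group instead, with 65.1, 62.3 and 60.2 CPM against 102 to 148 in the other 9.

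Several called genes were neighbours in the genome (GRCm38, as annotated by GENCODE). Ifit3 (chr19:34583531-34588731), Ifit3b (chr19:34607970-34613401) and Ifit1 (chr19:34640871-34650009) lie in 1 cluster, as do Gbp5 (chr3:142493978-142522344), Gbp7 (chr3:142530342-142550149) and Gbp2 (chr3:142620602-142638008). Rsad2 (chr12:26442746-26456452) and Cmpk2 (chr12:26469204-26479837) lie close together, and so do S100a4 (chr3:90603771-90606045) and S100a6 (chr3:90612882-90624181), described below. The called genes named for each of these clusters shared their shape, but other close pairs of called genes did not. Genes that were not called were left out here. Oas3 (chr5:120753098-120777661) was low in the double group and Oas1a (chr5:120896256-120907521) high in W131AOTII, and H2-T24 (chr17:36005695-36020560) was low in the double group and H2-T23 (chr17:36029773-36032855) high in Cbl-b-/- OTII. Igtp (chr11:58199556-58207591) and Irgm1 (chr11:48861968-48871683) lie apart on chromosome 11.

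**Figure D4:**
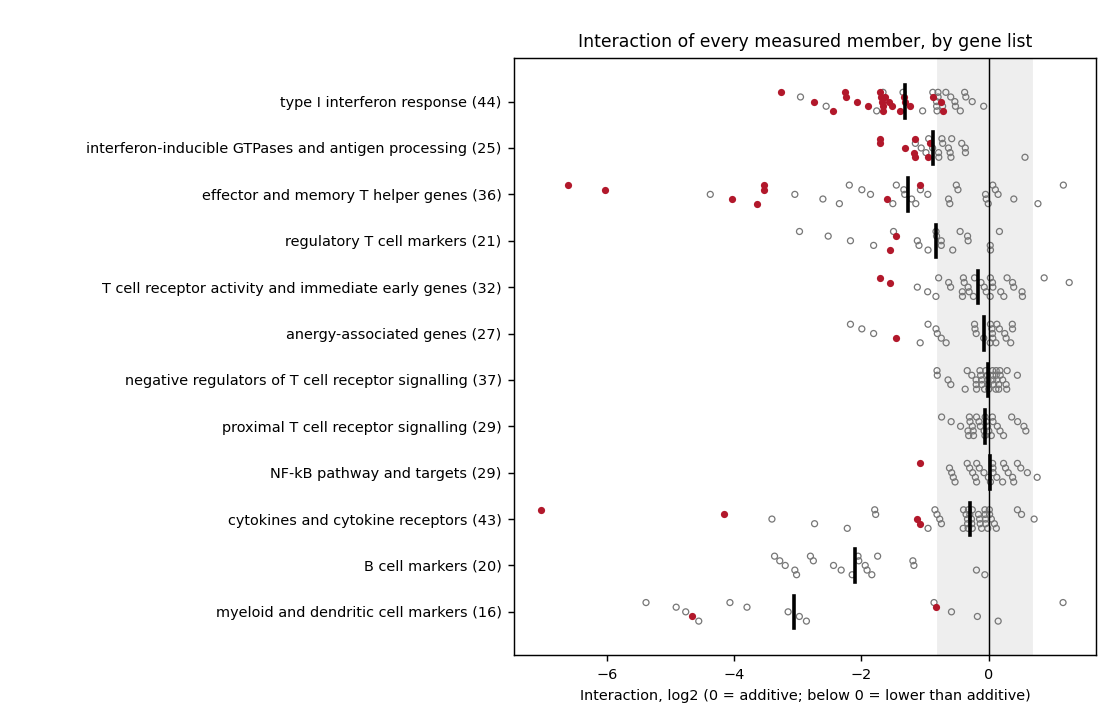
Interaction (log2, horizontal; 0 is additive) of every measured member of 12 gene lists, with the number measured in parentheses. Filled points are called, open points are not, bars are list medians and the grey band spans the 10th to 90th percentile of all genes (-0.79 to 0.68).

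Promoters were read because the interferon genes moved together. The pattern GAAANNGAAA, the core of the interferon-stimulated response element, was searched on both strands from 250 bases before to 50 after the start in RefSeq (GRCm38.p6). It was present at 3.99% of 27025 genes in that table. Of the called genes low in Cbl-b-/-W131AOTII, 23 of 28 had a promoter there and 10 of these (43.5%) held a match, and of the genes high in Cbl-b-/- OTII, 10 of 19 with a promoter did (52.6%). Of the genes low in OTII, 1 of 28 with a promoter did (3.57%), and of those high in W131AOTII, 1 of 9 (11.1%). All 6 called members of the GTPase and antigen processing list that had a promoter held a match. The gamma-activated sequence TTCNNNGAA is bound by STAT proteins, and its matches may overlap those of the first pattern. It was present at 5 of the 19 high in Cbl-b-/- OTII (26.3%) and 3 of the 23 low in the double group (13.0%). Shares were similar at 6 of the 28 low in OTII (21.4%) and 2 of the 9 high in W131AOTII (22.2%), against 9.55% of all genes. The AP-1 element TGANTCA and the NF-kB core GGGNNNNNCC were searched too. TGANTCA was present at 7 of the 23 low in the double group (30.4%) and 3 of the 19 high in Cbl-b-/- OTII (15.8%). It was present at 8.97% of all genes. GGGNNNNNCC was present at 17 of the 23 (73.9%) and 10 of the 19 (52.6%), against 53.5% of all genes. A match is a description of letters and not of binding. The 150 bases before the start site follow for 3 genes low in the double group, 2 high in Cbl-b-/- OTII and Gzma. Gzma was the only gene low in OTII with a response element match. Sequences are from RefSeq GRCm38.p6, 5′ to 3′ on the gene's strand, with response element matches in capitals.
Isg15 (chr4:156200819-156200968, - strand): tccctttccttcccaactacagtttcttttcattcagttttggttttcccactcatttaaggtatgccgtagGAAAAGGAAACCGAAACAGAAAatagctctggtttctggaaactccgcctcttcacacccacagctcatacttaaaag
Rsad2 (chr12:26456453-26456602, - strand): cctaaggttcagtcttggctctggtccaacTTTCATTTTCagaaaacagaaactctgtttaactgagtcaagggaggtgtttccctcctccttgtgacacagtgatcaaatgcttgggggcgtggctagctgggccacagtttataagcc
Ifit3 (chr19:34583379-34583528, + strand): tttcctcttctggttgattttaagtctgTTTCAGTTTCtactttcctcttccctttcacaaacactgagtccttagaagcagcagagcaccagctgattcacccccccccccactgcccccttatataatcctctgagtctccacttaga
Igtp (chr11:58199406-58199555, + strand): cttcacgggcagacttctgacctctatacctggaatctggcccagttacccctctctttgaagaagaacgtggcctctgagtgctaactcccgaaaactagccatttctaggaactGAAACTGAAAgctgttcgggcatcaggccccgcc
Gbp7 (chr3:142530186-142530335, + strand): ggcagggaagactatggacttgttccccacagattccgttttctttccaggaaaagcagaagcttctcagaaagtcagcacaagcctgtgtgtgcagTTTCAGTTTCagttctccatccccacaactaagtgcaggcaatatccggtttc
Gzma (chr13:113100982-113101131, - strand): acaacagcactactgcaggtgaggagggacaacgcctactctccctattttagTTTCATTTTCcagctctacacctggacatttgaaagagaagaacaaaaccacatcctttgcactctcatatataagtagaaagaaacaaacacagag
Isg15 held 3 overlapping matches that ended 56 bases before the start, while Rsad2 and Ifit3 each held 1, 110 and 112 bases before it. Igtp and Gbp7 held 1 match, 24 and 43 bases before the start, and that of Gzma ended 87 bases before it. Genes of both interferon shapes carried the response element pattern, on either strand.

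**Figure D5:**
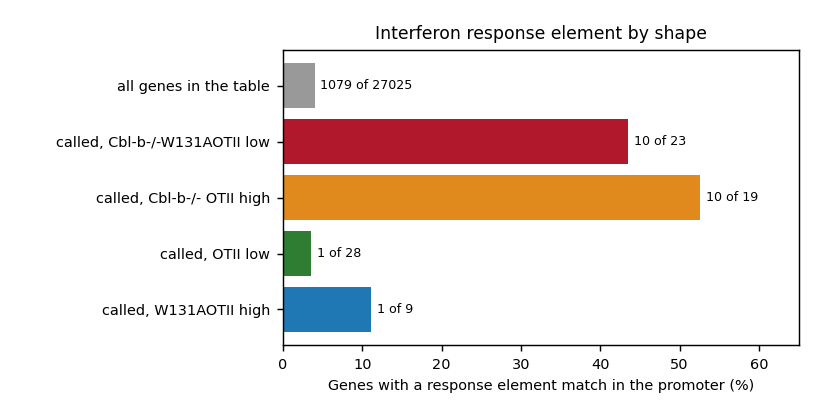
Percent of genes with a match to the core of the interferon-stimulated response element in the promoter window (bars from 0, with counts), for all genes in the promoter table and for called genes of each shape below additivity. The 2 shapes that hold most interferon genes reach 43.5% and 52.6%, and the genes low in OTII stand at 3.57%.

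In the third shape OTII was the low group. Of its 37 called genes, 8 were on the list of effector and memory T helper genes, 2 on that of regulatory T cell markers and 2 on that of cell cycle genes. Of 36 effector and memory T helper genes measured, 8 were called lower than additive (22.2%, against 0.706% of all genes) and 0 higher, with a median interaction of -1.26. They were Cxcr3, Gzmb, Ccr2, S100a4, S100a6, Klrg1, Gzma and Il2rb, and all 8 had this shape. Gzma is also on the list of NK and innate-like T cell markers, whose summed level moved with the groups as given above and whose part here was not tested. The 3 OTII libraries lay below the other 9 at 15 of the 36, against 2.71% of all genes tested. The count of 8 was 3, 5 and 4 when OTII replicates 1, 2 and 3 were dropped in turn, and 4 when any 1 library of the double group was. Most of these genes were at a few CPM or less, so their additive expectations rest on small OTII counts and are imprecise.

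Cxcr3, a chemokine receptor of type 1 helper cells, was 2.75, 2.79 and 2.00 CPM in OTII, 14.5, 18.4 and 9.55 in W131AOTII, 18.8, 20.3 and 22.8 with Cbl-b loss alone and 6.65, 11.4 and 12.1 with both changes. OTII lay below all others and Cbl-b-/- OTII above all others. Its interaction was -3.53 ± 0.37 (SE; edgeR adjusted p = 0.000383). Gzmb, the cytotoxic protease granzyme B, was 0.332, 0.748 and 0.571 CPM in OTII, 1.78, 2.65 and 2.02 in W131AOTII, 11.1, 11.3 and 6.52 with Cbl-b loss alone and 4.20, 3.16 and 2.35 with both changes. The double group lay below Cbl-b-/- OTII, and above W131AOTII with an overlap at its lowest library. The interaction of Gzmb was -3.53 ± 0.47 (SE; edgeR adjusted p = 0.0014).

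Other chemokine receptors were also lowest in OTII, while the order of the other 3 groups varied. Ccr8, which marks skin-homing and regulatory T cells, was 1.26, 0.884 and 1.21 CPM in OTII, 4.12, 7.93 and 5.5 in W131AOTII, 5.57, 6.07 and 4.04 with Cbl-b loss alone and 4.46, 4.20 and 3.70 with both changes. Ccrl2, a nonsignalling chemerin receptor, averaged 1.74 ± 0.449, 5.72 ± 0.605, 7.08 ± 0.389 and 3.14 ± 0.754 CPM (SD, n = 3) in OTII, W131AOTII, Cbl-b-/- OTII and the double group. Ccr2, which guides cells to inflamed tissue, was 0.846, 7 and 1.74 CPM in W131AOTII, so the single highest value came from replicate 2 with its high B cell markers. It was 6.22, 4.76 and 4.59 CPM with Cbl-b loss alone and 0.787, 0.631 and 1.42 with both changes. Of 29 chemokine receptor, adhesion and egress genes, 4 were called (13.8%), all lower, against 0.706% of all genes. Ccr4, the fourth, was instead high in W131AOTII, at 9.33, 8.76 and 8.03 CPM against 3.53 to 5.67 in the other 9. Ccr4 was called in 11 of 23 settings, and in 2 of the 12 that left out 1 library.

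Among cytokine receptors, 4 of 43 cytokine and receptor genes were called (9.30%), all lower, against 0.706% of all genes. Il1rl1, the receptor for IL-33, was 0.133, 0.102 and 0.0357 CPM in OTII, 2.40, 2.91 and 2.02 in W131AOTII, 2.34, 3.85 and 2.99 with Cbl-b loss alone and 0.350, 0.334 and 1.11 with both changes. Both single changes were above the double group in every library. Its interaction of -7.04 ± 0.72 (SE; edgeR adjusted p = 0.000383) rests on OTII libraries close to 0. Il1r2, the decoy receptor for IL-1, was 0.170 to 0.285 CPM in OTII and 1.14 to 2.10 in Cbl-b-/-W131AOTII. Il2rb, the shared chain of the receptors for IL-2 and IL-15, differed from these in being high in both W131A groups, with 266, 317 and 219 CPM in W131AOTII and 217, 240 and 204 in Cbl-b-/-W131AOTII against 47.9, 61.4 and 55.3 in OTII and 73.0, 114 and 98.8 in Cbl-b-/- OTII. The interaction of Il2rb was -1.08 ± 0.23 (SE; edgeR adjusted p = 0.0374), and it was called in 12 of 23 settings.

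Klrg1, an inhibitory receptor of terminally differentiated T cells, shows the limit of depth. It had 1, 0 and 0 reads in OTII, 1, 20 and 5 in W131AOTII, 188, 204 and 181 with Cbl-b loss alone and 36, 23 and 72 with both changes. With 1 read in OTII over 3 libraries its additive expectation has no usable size, and no ratio is given. S100a4 and S100a6, calcium-binding proteins of activated T cells, had -4.03 ± 0.77 and -3.64 ± 0.68 (SE; edgeR adjusted p = 0.0176 and 0.0195). Their Cbl-b-/- OTII replicate 2 stood apart, with 7.02 CPM of S100a4 against 2.14 and 1.90, and 24.6 CPM of S100a6 against 8.56 and 7.61. Gzma, granzyme A, was 5.17, 5.51 and 5.64 CPM in OTII and 14.3, 13.3 and 14.1 in Cbl-b-/-W131AOTII, against an additive expectation of 42.0. Klrg1 and Gzma were called in 14 and 13 of 23 settings, and each in 4 of the 12 that left out 1 library.

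Called regulatory T cell genes had this shape too. Of 21 regulatory T cell markers measured, 2 were called lower (9.52%, against 0.706% of all genes), Tnfrsf4 and Ctla4, and the list median was -0.83. OTII lay below the other 9 libraries at 15 of 21, against 2.71% of all genes tested. Tnfrsf4, the costimulatory receptor OX40, was 16, 15.6 and 12.9 CPM in OTII, 64.5, 73.7 and 57.1 in W131AOTII, 48.1, 84.2 and 43.1 with Cbl-b loss alone and 82.5, 92.4 and 86.5 with both changes. The double group held the highest values, except that 1 Cbl-b-/- OTII library lay above its lowest. Ctla4, the inhibitory receptor that competes with CD28, was 6.43, 4.28 and 3.39 CPM in OTII, 16.9, 16.9 and 15.4 in W131AOTII, 15.4, 26.2 and 20.9 with Cbl-b loss alone and 29.5, 26.2 and 23.9 with both changes. Here the double group was the highest, at 0.365 of its additive expectation of 72.7 CPM, so the departure was a smaller sum and not a reversal. Ctla4 was called in 13 of 23 settings.

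Foxp3, which defines regulatory T cells, was 28.4, 30.9 and 34.1 CPM in OTII, 137, 160 and 147 in W131AOTII, 31.6, 51.0 and 51.6 with Cbl-b loss alone and 124, 124 and 114 with both changes. Its interaction was -0.82 ± 0.22 (SE; edgeR adjusted p = 0.105) and was not called. Nt5e and Izumo1r, which encode CD73 and folate receptor 4, were likewise not called, at -0.83 ± 0.33 and -0.74 ± 0.28 (SE; edgeR adjusted p = 0.264 and 0.237). Among 32 T cell receptor activity and immediate early genes 2 were called (6.25%, against 0.795% of all genes), Tnfrsf4 again and Bhlhe40, a transcription factor of activated T cells, with -1.71 ± 0.33 (SE; edgeR adjusted p = 0.0198). Egr1 and Nr4a1, direct reporters of receptor signal, had 0.53 ± 0.21 and 0.06 ± 0.20 (SE; edgeR adjusted p = 0.263 and 0.911).

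Signalling lists held at most 1 called gene each. With 0.795% of all genes called, lists of this size would hold less than 1 call at the share of all genes, so these counts do not set them apart. There were 0 called among 37 negative regulators of T cell receptor signalling (median 0.00), 29 proximal signalling genes (-0.06), 28 calcium and NFAT genes (0.08), 30 genes of the PI3K, AKT and mTOR pathway (0.14) and 29 Ras and MAP kinase genes (0.03). There were 0 called among 25 naive T cell and quiescence genes, 17 follicular helper genes, 32 apoptosis genes and 24 glycolysis genes, and 1 of 27 anergy-associated genes was called, Ctla4. Dtx1, an anergy-linked ubiquitin ligase, had 0.37 ± 0.23 and Bcl2, the survival factor, had 0.55 ± 0.27 (SE; edgeR adjusted p = 0.443 and 0.334). Of 29 genes of the NF-kB pathway 1 was called, Bcl3, a nuclear cofactor of NF-kB, which was 164, 190 and 266 CPM in W131AOTII and 77.5 to 109 in the other 9 libraries. Ribosomal protein genes had 0 of 81 called, though 67 lay below 0 (median -0.74). Their share was 1.93% of counts in Cbl-b-/- OTII replicate 2 and 0.629% to 1.04% elsewhere.

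The list of cell cycle and DNA replication genes had 2 calls among its 40 members (5%, against 0.706% of all genes), both lower and both of the OTII low shape. Ccnb2, cyclin B2, was 0.166, 0.374 and 0.428 CPM in OTII, 0.846, 4.16 and 1.36 in W131AOTII, 4.18, 4.35 and 3.70 with Cbl-b loss alone and 1.60, 1.60 and 1.80 with both changes. Top2a, the topoisomerase of dividing cells, had -1.71 ± 0.35 (SE; edgeR adjusted p = 0.0275), with 4.18 to 4.96 CPM in OTII and 7.46 to 20 elsewhere. Within W131AOTII both genes were highest in replicate 2, the library with the high B cell markers. Ndufb10, a subunit of respiratory complex I, was the only call among 77 nuclear respiratory chain genes (1.3%, against 0.795% of all genes). Of the 77, 73 lay below 0 (median -0.62). Ndufb10 was 159, 184 and 199 CPM in W131AOTII and 74.1 to 102 in the others, except for 190 in Cbl-b-/- OTII replicate 2.

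The 12 genes high in W131AOTII included 1 on the type I interferon list and 0 on that of effector genes. Gadd45g, a growth arrest and stress protein, was 16.9, 22.1 and 22.9 CPM in W131AOTII, 4.31, 5.23 and 4.21 in OTII, 9.36, 10.6 and 5.47 with Cbl-b loss alone and 8.46, 9.80 and 9.02 with both changes. Icam1, an adhesion molecule, was 100, 117 and 125 CPM in W131AOTII, 66.7 to 69.6 in OTII, 87.6 to 109 in Cbl-b-/- OTII and 72.6 to 89.9 in the double group. These 2 genes were chosen after their values were seen.

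Genes above additivity were few, and the 2 with the smallest p among genes named here were low in W131AOTII but not in the double group. Rfwd3, a ubiquitin ligase of DNA repair, was 33.1, 32.6 and 36.3 CPM in OTII, 12.7, 16.1 and 14.6 in W131AOTII, 23.3, 23.6 and 30.9 with Cbl-b loss alone and 32.9, 30.9 and 28.7 with both changes. Hmgb1, an abundant chromatin protein, was 33.8, 31.3 and 33.4 CPM in OTII, 19.2, 16.5 and 16 in W131AOTII, 38.4, 37.6 and 42.5 with Cbl-b loss alone and 44.3, 44.1 and 39.3 with both changes. In both genes the W131AOTII libraries lay below the other 9, the pattern by which they were sorted, which 1.95% of all genes tested had. The interaction was 1.48 ± 0.20 for Rfwd3 and 1.04 ± 0.17 for Hmgb1 (SE; edgeR adjusted p = 0.00165 and 0.00632), and both were called in all 23 settings. Hmgb1 has many processed pseudogenes that can take its reads, and the other 7 measured genes of the high mobility group list were not called.

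Firre, a long noncoding RNA of the X chromosome, was 6.4, 5.47 and 5.81 CPM in OTII, 2.96, 2.85 and 1.93 in W131AOTII, 2.44, 2.22 and 4.49 with Cbl-b loss alone and 7.17, 5.05 and 11.3 with both changes. Each single change was low and the double change overlapped OTII, with an interaction of 2.54 ± 0.45 (SE; edgeR adjusted p = 0.01). Trim2, a ubiquitin ligase, was 0.597, 0.906 and 0.883 CPM in Cbl-b-/- OTII and 2.07 to 4.35 in the other 9 libraries. Prkab2, a subunit of the energy sensor AMPK, had 1.48 ± 0.32 (SE; edgeR adjusted p = 0.043) and was called in 11 of 23 settings.

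Base composition moved with the groups beside the markers of other cells. Across genes, which are not independent replicates, the interaction had a Spearman correlation of -0.145 with GC content. The correlation of a gene's GC content with its deviation in a library ran from -0.615 in Cbl-b-/- OTII replicate 3 to 0.473 in W131AOTII replicate 2. With offsets for GC content and length, 216 genes were called, among them 111 of the 116. The 6 libraries without Cbl-b may share a colony or a handling day that the labels do not give, which cannot be told apart from the genotype.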

How the data were processed

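Total RNA of sorted CD4 T cells was sequenced single-end at 50 bases. Values are raw read counts per gene as deposited by the authors, 1 column per library. The submitters' processing notes name STAR 2.7.2, GRCm38 and DESeq2. How reads were counted, with which annotation and strand setting, is not stated in the sources used here, so overlapping and antisense genes cannot be told apart. All 55536 identifiers matched GENCODE M21 for symbols, and 0 columns lacked a sample.

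A single model was fitted to the 12 peripheral libraries with edgeR 4.0.16 in R 4.3.3 (filterByExpr, TMM factors, robust quasi-likelihood, 8 residual degrees of freedom), and the interaction was tested over 14586 genes with Benjamini-Hochberg adjustment at 0.05. The 6 thymic libraries were not used. CPM was computed by edgeR with TMM-scaled totals. The standard error is the size of the log2 value divided by the square root of F.

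Named genes were Cblb, Zap70, up to 15 top genes in each direction, up to 6 called members of each of 52 lists, and 12 genes of interest. The top genes had the smallest p among those called at 2-fold or more and at 2 CPM or more, with predicted genes and pseudogenes left out. The members and lists were chosen with earlier results of these data known. Alternatives were limma 3.58.1 voom, DESeq2 1.42.0, other scalings and filters, GC and length offsets, a replicate block, all 18 libraries and each library left out.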

Additional observations from a re-analysis of the deposited data

Results flagged for a closer look

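The W131A effect differed between cells with and without Cbl-b at 116 genes, by the test of the difference itself (edgeR quasi-likelihood, adjusted p of 0.05). At 13 of these the effect was called with opposite signs in the 2 backgrounds, up with Cbl-b and down without it. They were picked for that pattern, so their values are a description, and 5 of them (Serpina3f, Ms4a4c, Lgals3bp, Ppa1 and Cxcl10) were chosen after their values were seen. Interactions (log2) were -7.04 for Il1rl1, -3.53 for Cxcr3, -1.70 for Ly6a, -3.26 for Ifitm3, -2.88 for Ccrl2, -2.89 for Ube2l6 and -1.89 for Oas3. They were -4.50 for Serpina3f, -3.53 for Gzmb, -2.10 for Ms4a4c, -1.04 for Lgals3bp, -0.97 for Ppa1 and -2.96 for Cxcl10. Cxcl10, a ligand of CXCR3, was 1.69, 1.46 and 1.53 CPM in OTII, 6.17, 2.85 and 2.97 in W131AOTII, 2.54, 2.36 and 2.04 with Cbl-b loss alone and 0.496, 0.817 and 0.967 with both changes. Serpina3f and Ms4a4c belong to families of close paralogs.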

How the results depend on the processing

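The counts below are of genes called in all, higher and lower, then of called members of the interferon, GTPase and effector lists, which were 116, 13, 103, 22, 8 and 8. DESeq2 gave 445, 121, 324, 30, 16 and 15, and voom with quality weights 675, 296, 379, 36, 21 and 14, with 72.8% and 56.1% of calls lower against 103 of 116. Without a filter they were 1167, 189, 978, 35, 21 and 23, with library sizes in place of TMM 98, 20, 78, 19, 5 and 6 (median of all genes 0.12), and with all 18 libraries 96, 6, 90, 21, 9 and 6. GC and length offsets gave 216, 21, 195, 32, 15 and 12 (median of all genes -0.16). Without W131AOTII 2 and Cbl-b-/- OTII 2 together they were 177, 27, 150, 36, 15 and 7. Leaving out 1 library at a time gave 70 to 750, 5 to 140, 65 to 610, 19 to 28, 5 to 17 and 3 to 11. Replicate numbers are shared by the groups, but only 3 of 18 same-number pairs of libraries had a correlation of deviations over 0.1 and 5 of 12 libraries correlated best with their own number. The replicate block gave 198, 31, 167, 28, 11 and 9, and with GC and length offsets 256, 28, 228, 31, 13 and 13. The cause of these shifts was not tested. The sign reversed at 0 of the 116 genes in any setting, and for named genes 1067 comparisons kept their side of the threshold, 119 lost the call and 9 gained it.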
